A study of Mus musculus with 32 samples.

Results

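Osteosarcoma is a malignant tumour whose cells lay down bone matrix. Rb1 and p53 (the Trp53 product) are tumour suppressors: Rb1 holds back entry into S phase by binding E2F factors, and p53 halts the cell cycle or triggers apoptosis after DNA damage. Loss of both in cells of the bone lineage is a known way to produce osteosarcoma in mice, and both genes are often altered in the human tumour. Cre is a DNA recombinase. Prx1Cre expresses it in limb bud mesenchyme, and Col1Cre takes its name from type I collagen, whose promoter is active in osteoblasts, the cells that make bone.

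RNA sequencing libraries of 7 mouse osteosarcomas were compared with the 6 libraries whose source is given as control, 13 of the 32 libraries in the series. The osteosarcomas were taken as every library whose title holds Rb1p53. Of these, 4 are titled Col1CreRb1p53 (numbers 22, 26, 27 and 31) and 3 are titled Prx1CreRb1p53 (28, 38 and 42), and they are called below by Cre and number. The controls are titled Chest1 to Chest5 and Bone3. The labels give no strain, age, sex or form of the Rb1 and p53 alleles for the tumours, and no genotype or tissue for the controls. Whatever tissue, genotype or Cre sets the tumours apart from the controls cannot be told apart with these labels. Nothing says that the libraries came from separate animals, so the p-values measure the spread between these libraries, which may in part be technical. The other libraries, 13 clear cell sarcomas and 6 synovial sarcomas, took part in the estimate of the spread and in 1 comparison near the end.

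The deposited values were RPKM, reads per kilobase of transcript and per megaread of the library, for 55419 transcripts. The low values rise in equal steps, from which the whole reads, the transcript lengths and the depth were recovered. Depth was 9.33 to 11.98 M reads (megareads) in osteosarcoma and 9.18 to 12.05 M reads in control. The table names transcripts by UCSC identifiers and does not pair these with genes, nor does the reference used here. Rb1, Trp53 and the markers of bone, muscle, marrow and other tissues were therefore not looked up, the labelled tissues could not be checked against markers, and no sequence is shown. Results are given as counts and ranges over transcripts, with 2 identifiers that rose and 2 that fell.

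Some of the 13 libraries stood apart. Prx1Cre 42 lay apart from the other tumours in several of the summaries below, and the main counts are also given without it. Chest1 and Chest2 were almost the same. The chi-square of their reads was 1.51 per degree of freedom over 12640 transcripts, where a value of 1 would be counting noise alone. For the other 14 pairs of controls it was 15.2 (Bone3 with Chest4) to 122, and for the 21 pairs of osteosarcomas 94.3 to 883. The labels do not say that Chest1 and Chest2 are 1 animal, and they were kept as 2 libraries, with their average as an alternative. Bone3 was no outlier among the controls: over 6781 transcripts with a mean of at least 100 reads its rank correlation with Chest4 was 0.985.

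Osteosarcoma and control differed across a large part of the transcripts measured. Of 15230 tested transcripts, 6041 (39.7%) passed the test, 4057 higher in osteosarcoma (26.6%) and 1984 lower (13%). The test was limma on log2(RPKM + 1) over all 32 libraries, two-sided, with a Benjamini-Hochberg adjusted p threshold of 0.05. The transcripts that rose did so by moderate factors, and those that fell reached further. At least 2-fold changes were seen in 3058 that rose (20.1%) and 1595 that fell (10.5%). At 4-fold the counts were 1118 (7.34%) and 866 (5.69%), and at 8-fold 318 (2.09%) and 473 (3.11%). Beyond 32-fold, 16 transcripts had risen and 156 had fallen. Fold changes on this scale are understated for transcripts near 1 RPKM. Without Prx1Cre 42 the calls numbered 6622 (43.5%), 4439 higher (29.1%) and 2183 lower (14.3%), and the counts at 8-fold were 501 higher and 503 lower. Beyond 32-fold they were 52 and 143.

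**Figure D1:**
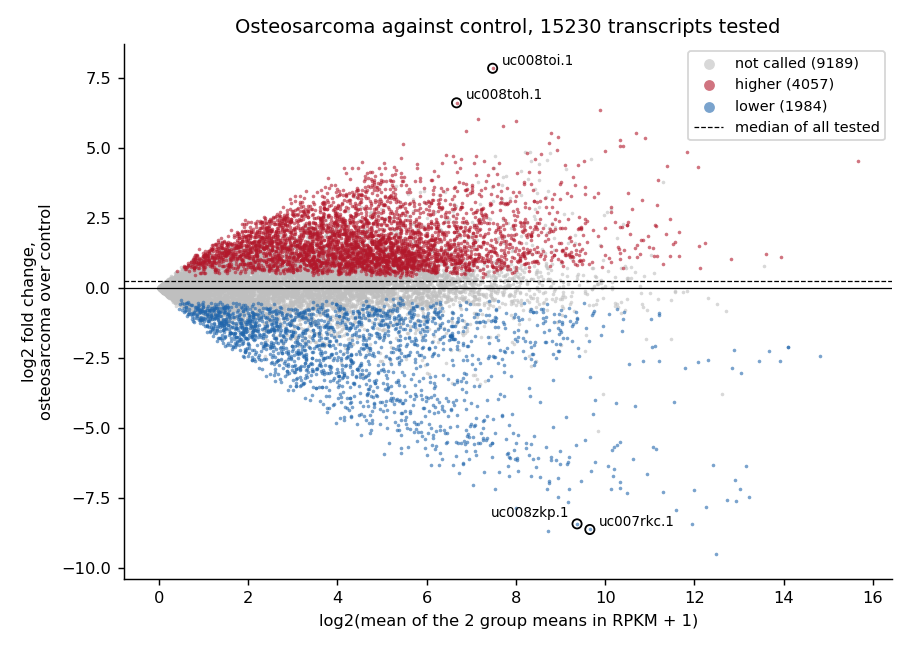
Log2 fold change of osteosarcoma over control against log2 of the mean level (RPKM + 1) for each of the 15230 tested transcripts; red and blue points passed the limma test and grey points did not, and the dashed line is the median of all tested (0.25). The largest decreases reach further from 0 than the largest increases, and the 4 named transcripts are circled.

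The division into higher and lower depended on how the libraries were scaled. The median log2 fold change over all tested transcripts was 0.25, so more than 50% of them lay above 0. A fit to the 13 osteosarcoma and control libraries alone, without the spread of the other sarcomas, gave 5035 calls, 3300 higher and 1735 lower. Scaling each library by its median ratio brought that median to -0.02, and then 2749 transcripts passed as higher and 3154 as lower. Quantile normalization gave 3082 and 2727. Of the 1984 transcripts called lower, all 1984 kept that call under median ratio scaling and 1947 under quantile normalization. Of the 4057 called higher, 2748 and 2999 did. No transcript called in one direction was called in the other under any setting where calls were compared. Under both of these scalings, limma voom on the recovered reads, a common floor of 20 reads and the fit without Prx1Cre 42, 2382 transcripts were higher in osteosarcoma every time and 1687 were lower every time. The surplus of higher over lower calls, in contrast, was present under quantile normalization and absent under median ratio scaling.

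**Figure D2:**
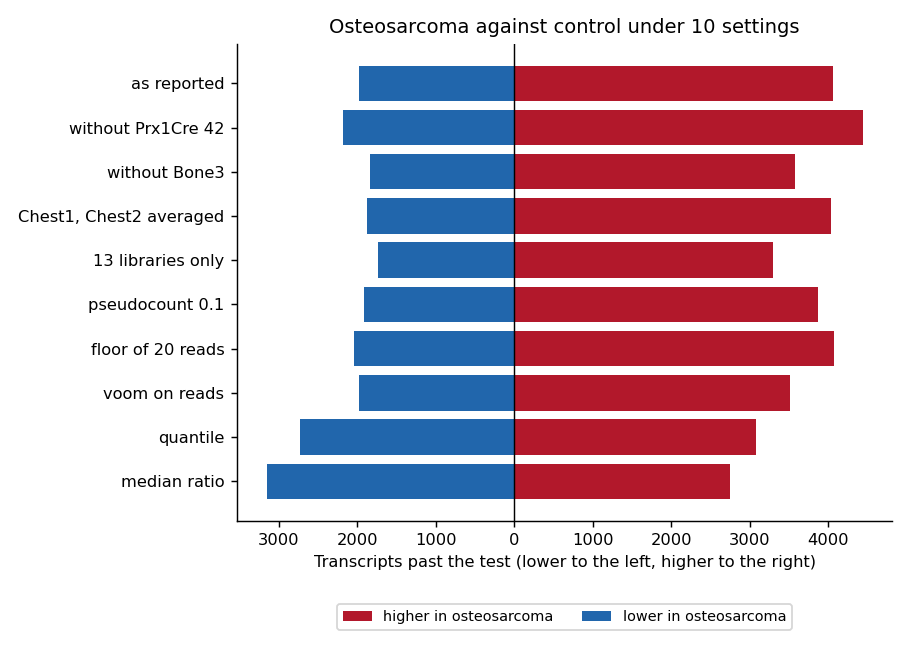
Number of transcripts past the limma test in osteosarcoma against control under 10 settings, with those lower in osteosarcoma drawn to the left and those higher to the right of 0. The total lies between 5035 and 6622, while the scaling of the libraries moves the split from 4057 higher and 1984 lower to 2749 higher and 3154 lower.

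Calls were most frequent among well expressed transcripts. Where the higher of the 2 group means was under 1 RPKM, 1.64% of 1527 transcripts passed. A low share was built into that class. The log2(RPKM + 1) scale compresses its fold changes, and a transcript could enter the test through the other sarcomas alone. From 5 to 20 RPKM 39.5% of 4032 did, and at 1000 RPKM or more 71.4% of 238 did. In the highest class the directions were nearly balanced, with 94 transcripts higher in osteosarcoma and 76 lower, whereas between 20 and 100 RPKM 1697 were higher and 599 lower. Recovered length mattered less. Under 100 bases 29.9% of 1603 transcripts passed, and from 2000 to 4000 bases 46.1% of 3261 did.

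The levels of all 7 osteosarcomas lay above those of all 6 controls for 1321 transcripts (8.67%), of which 1302 passed the test as higher. They lay below all 6 for 705 (4.63%), of which 686 passed as lower. With Prx1Cre 42 left out these counts were 2200 (14.4%) and 1114 (7.31%). A stricter pattern counted transcripts as present or not at 20 reads. Among the 16398 transcripts with recovered reads, 82 had at least 20 reads in every osteosarcoma and under 20 in every control (0.5%), and 113 showed the reverse (0.689%). Of the 113, 3 had a listed value of 0 in all 7 tumours, whereas none of the 82 was at 0 in all 6 controls. Without Prx1Cre 42 the 2 patterns held 183 (1.12%) and 185 (1.13%) transcripts.

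Transcripts are named below only where the 2 groups did not overlap, so that separation is part of the choice. The largest increase under these limits was uc008toi.1, with a recovered length of 286 bases. Its level in osteosarcoma was 87.0 RPKM at the lowest (Col1Cre 26), 209 at the median and 1010.5 at the highest (Prx1Cre 38), and in Prx1Cre 42 it was 564 RPKM. In the controls it was 0.688 RPKM in Chest1, 0.327 in Chest2 and listed at 0 in the other 4. That Prx1Cre 42 stood on the tumour side here was required by the choice of transcripts without overlap. The libraries held 7619 of its reads in osteosarcoma and 3 in control, a depth-scaled ratio of 2121 (exact conditional 95% interval 725 to 10287, which covers counting error only). The log2 fold change of 7.84 (SE 0.48, limma adjusted p = 1.28e-12) exceeded the spread between libraries. With the spread taken from the 13 osteosarcoma and control libraries alone, the adjusted p of uc008toi.1 was 1.74e-06 (limma).

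Transcript uc008toh.1, of 207 bases, came second. The identifiers uc008toh.1 and uc008toi.1 differ only in their last letter, and whether they share a locus or reads was not tested. The level of uc008toh.1 in osteosarcoma was 10.8 RPKM at the lowest, 123 at the median and 600 at the highest (Prx1Cre 38). The lowest was Prx1Cre 42, and the next lowest, Col1Cre 26, had 73.0 RPKM. Among the controls it had 1.36 RPKM in Chest2 and 0.475 in Chest1, and it was listed at 0 in the other 4. The reads numbered 3076 in osteosarcoma and 4 in control as listed. For 3 of the controls at 0, up to 19 unlisted reads each are possible, as described below, so the controls may hold as many as 61 reads. The depth-scaled ratio was 642 with 4 control reads (exact conditional 95% interval 251 to 2358, counting error only) and would be 42.1 with 61. The fold change was 6.61 on the log2 scale (SE 0.87, limma adjusted p = 1.02e-06). Both transcripts were also higher in osteosarcoma than in the other tumours by the test. For uc008toi.1 the highest of 13 clear cell sarcomas had 28.4 RPKM and the highest of 6 synovial sarcomas 15.2. The log2 fold changes of uc008toi.1 were 4.495 against clear cell sarcoma (SE 0.40, limma adjusted p = 8.78e-10) and 4.56 against synovial sarcoma (SE 0.48, limma adjusted p = 1.03e-08). For uc008toh.1 the highest clear cell sarcoma had 21.1 RPKM and the highest synovial sarcoma 20.5, both above the 10.8 RPKM of Prx1Cre 42, so these groups overlapped. The log2 fold changes of uc008toh.1 were 5.43 against clear cell sarcoma (SE 0.73, limma adjusted p = 1.90e-06) and 4.69 against synovial sarcoma (SE 0.87, limma adjusted p = 1.46e-04).

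Transcript uc007rkc.1, of 1471 bases, showed the largest decrease under the same limits. Its level in osteosarcoma was listed at 0 in Prx1Cre 28 and Prx1Cre 38, had a median of 0.697 RPKM and reached 89.0 RPKM in Col1Cre 27. In the controls the lowest was 1073 RPKM (Chest1), the median 1607 and the highest 2289 (Chest3). All controls thus stood more than 10-fold above the highest tumour. In Prx1Cre 42 the transcript had 1 read, 0.063 RPKM, against 26532 reads and 1911 RPKM in Bone3. On the log2 scale the fold change was -8.63 (SE 1.39, limma adjusted p = 1.45e-05).

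For uc008zkp.1, of 633 bases, osteosarcoma had a lowest listed value of 0 (Col1Cre 22, Col1Cre 26 and Prx1Cre 28), a median of 0.440 RPKM and a highest value of 28.9 (Col1Cre 27). The controls had 1102 RPKM at the lowest (Chest4), 1258 at the median and 1813 at the highest (Chest3). The fold change was -8.43 on the log2 scale (SE 1.31, limma adjusted p = 9.03e-06). In bulk tissue such a fall can come from fewer cells of a type or from less RNA per cell, which cannot be told apart. By median the other tumours lay between osteosarcoma and control for these 2 transcripts. They varied widely, and their ranges overlapped that of osteosarcoma for both. Clear cell sarcomas had a median of 6.605 RPKM for uc007rkc.1 (range 0 to 734, n = 13), and the difference of osteosarcoma from them missed the threshold (log2 fold change -1.98, SE 1.17, limma adjusted p = 0.197). Synovial sarcomas had a median of 148.5 RPKM for uc007rkc.1 (range 23.7 to 516, n = 6), above osteosarcoma (log2 fold change -4.87, SE 1.39, limma adjusted p = 0.0091). For uc008zkp.1 the median was 6.17 RPKM in clear cell sarcoma and 76.4 in synovial sarcoma. The differences of osteosarcoma from them both missed the threshold. They were -2.22 on the log2 scale against clear cell sarcoma (SE 1.10, limma adjusted p = 0.119) and -3.40 against synovial sarcoma (SE 1.31, limma adjusted p = 0.051).

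**Figure D3:**
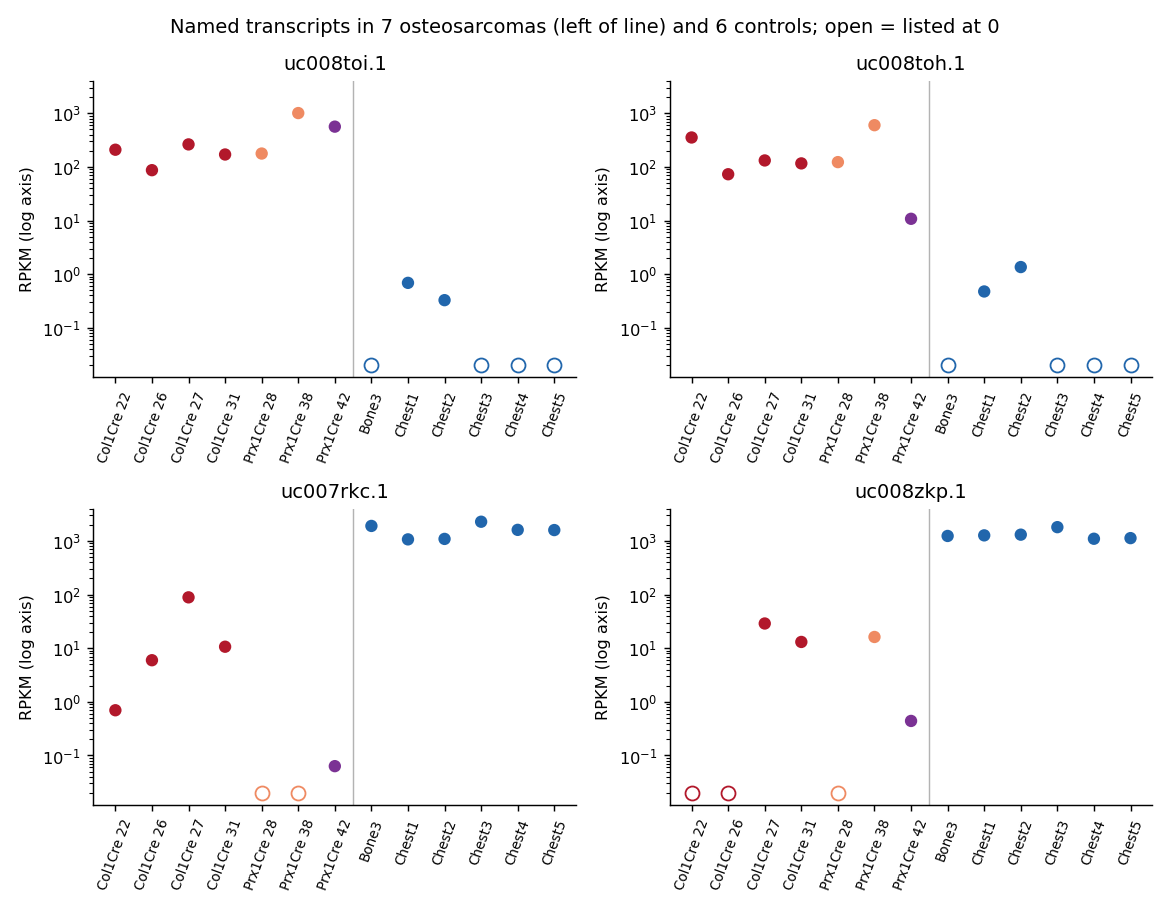
RPKM of the 4 named transcripts in each library on a log axis, with the 7 osteosarcomas left of the line and the 6 controls right of it; open circles at the foot are values listed at 0, red is Col1Cre, orange Prx1Cre, purple Prx1Cre 42 and blue control. The choice of transcripts without overlap put every tumour, Prx1Cre 42 included, on the tumour side of all controls. For uc008toh.1 Prx1Cre 42 is the lowest tumour at 10.8 RPKM.

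A listed 0 did not mean the same thing in every library. Of the 32 libraries, 28 fell into 14 pairs in which a value appeared almost only where the 2 libraries together held at least 20 reads. In the 12 osteosarcoma and control libraries with such a partner, at most 4 values broke this rule. With the next best library in place of the partner, 289 to 629 did. The pairs crossed the groups: Prx1Cre 42 went with Bone3, Col1Cre 22 with Chest1, Col1Cre 27 with Chest2, and Prx1Cre 28 with Col1Cre 26. Col1Cre 31, Chest3, Chest4 and Chest5 each had a partner among the other sarcomas, and Prx1Cre 38 had none. The labels mention no pairs. Where the partner is above 0, a listed 0 is a count of 0 reads. Where both are at 0, up to 19 reads may lie behind it. For uc008toi.1 the partner was above 0 for each of the 4 controls at 0. For uc008toh.1 this held for Bone3, while for Chest3, Chest4 and Chest5 both members of the pair were at 0. For uc008zkp.1 the partners Col1Cre 26 and Prx1Cre 28 were both at 0, so its tumour median of 0.440 RPKM could be higher. Col1Cre 22 had 0 reads of it. For uc007rkc.1 Prx1Cre 28 had 0 reads, and Prx1Cre 38 has no partner to judge its 0 by.

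The likeness between libraries differed between all tested transcripts and the well covered ones, which differ in level and counting noise as well as in listing. Over all 15230 tested transcripts, Spearman's rho put the closest match of 10 of the 13 libraries within their own tissue type, and 5 libraries matched their listing partner best. Prx1Cre 42 was nearest to Bone3 (rho 0.83), its partner, with a mean of 0.69 to the other osteosarcomas and 0.72 to the controls. Over the 6781 transcripts with a mean of at least 100 reads, all 13 libraries were nearest to 1 of their own type and none to its partner. There Prx1Cre 42 was nearest to Col1Cre 22 (rho 0.72), with means of 0.71 to osteosarcoma and 0.69 to control and 0.70 to Bone3. The other osteosarcomas had means of 0.80 to 0.86 to osteosarcoma and 0.56 to 0.80 to control. Col1Cre 26 also lay near the controls, with means of 0.796 to osteosarcoma and 0.797 to control. These correlations are across transcripts, which are not independent replicates.

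To place each library on the axis between the groups without using it to draw that axis, the test was repeated without the library. The transcripts at least 2-fold changed were taken from that fit, and the position of the omitted library was read between the mean of the controls (0%) and the mean of the other osteosarcomas (100%). On the transcripts higher in osteosarcoma, 6 of the 7 osteosarcomas lay at 80.2% to 119%, and Prx1Cre 42 lay at 28.5%. Control libraries lay at -16.6% to 25.9%. On the transcripts lower in osteosarcoma, Col1Cre 26 was the least far along, at 56.1%, followed by Prx1Cre 42 at 69.7% and Col1Cre 27 at 77.5%. The other 4 lay at 96.7% to 126% and the controls at -6.55% to 15.9%. Each position comes from its own fit, with its own transcripts and group means, so positions close to each other cannot be ranked. That holds for Prx1Cre 42 and Chest1 on the transcripts higher in osteosarcoma (28.5% and 25.9%). Of these transcripts, 40.7% in Prx1Cre 42 and 19.3% in Chest1 were nearer the osteosarcoma mean. On the transcripts lower in osteosarcoma, every tumour position was well above every control position. The position of Chest1 is not independent of Chest2, which stayed in the fit. With only transcripts of at least 100 mean reads, Prx1Cre 42 stood at 36.9% and 77.2%, and Col1Cre 26 at 79.3% and 48.1%.

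**Figure D4:**
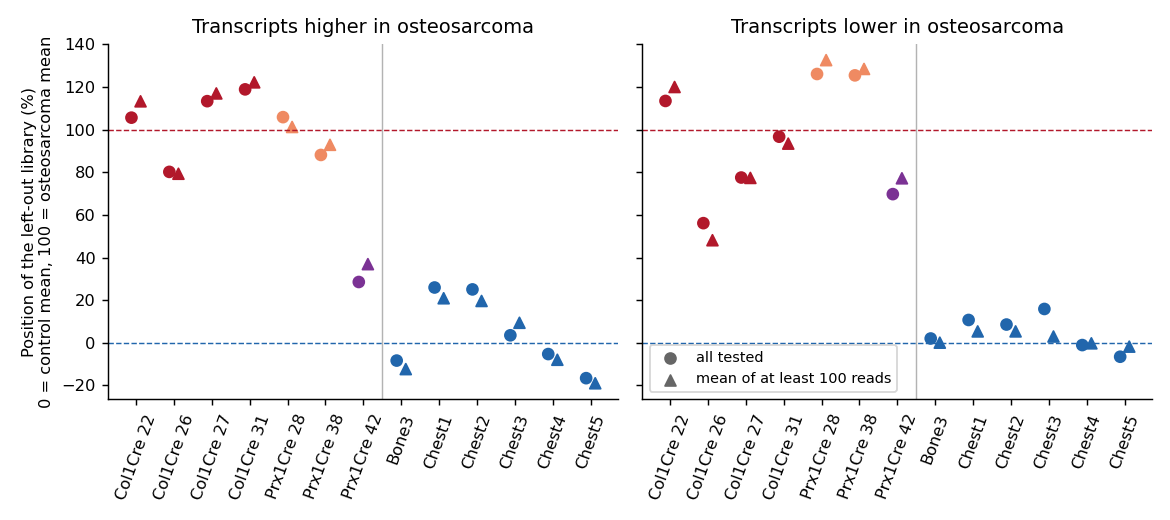
Position of each library, left out of the fit, between the control mean (0%) and the osteosarcoma mean (100%) over transcripts at least 2-fold higher (left panel) or lower (right panel) in osteosarcoma; circles use all tested transcripts and triangles those with a mean of at least 100 reads. Prx1Cre 42 lies near the highest controls in the left panel (28.5%), while Col1Cre 26 is the lowest tumour in the right panel (56.1%).

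By reads, the change was large. The transcripts called higher, which these libraries themselves defined, held 44.4% to 68.5% of the reads of 6 osteosarcomas and 26.2% in Prx1Cre 42, and 10.7% to 16.7% of the reads of the controls. Those called lower held 6.82% to 28.01% in the same 6 tumours and 45.3% in Prx1Cre 42, and 58.3% to 69.6% in the controls. Prx1Cre 42 thus devoted more of its reads to the lower set than any other tumour, and fewer than any control.

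Expression was less concentrated in the tumours. The number of transcripts that together held 50% of a library's reads was 153 (Prx1Cre 42), 286 (median) and 362 (Col1Cre 27) in osteosarcoma, and 49 (Chest4), 75 (median) and 131 (Chest1) in control. Every tumour exceeded every control. The means were 274 ± 71.2 transcripts in osteosarcoma (SD, n = 7) and 84.8 ± 35.9 in control (SD, n = 6; exact two-sided permutation test, p = 0.00117, Benjamini-Hochberg adjusted over 4 summaries p = 0.00155). This p is the smallest that 7 against 6 libraries can give. Without Prx1Cre 42 the tumour mean was 294 ± 51.5 (SD, n = 6; exact two-sided permutation test, p = 0.00216, again the smallest possible). The 100 highest transcripts held 37.4% ± 4.49 of the reads in osteosarcoma and 52.2% ± 4.12 in control (SD, n = 7 and 6; exact two-sided permutation test, p = 0.00117). As a share of summed RPKM, to which short transcripts add more, they held 42.5% ± 3.85 in osteosarcoma and 51.7% ± 3.04 in control (SD, n = 7 and 6; exact two-sided permutation test, p = 0.00117). The highest RPKM entry had 3 bases in every tumour but Prx1Cre 42, and 1612 bases in Prx1Cre 42 and the controls. Over transcripts of at least 200 bases the difference in this share was -19.6 percentage points, against -9.19 over all transcripts. The number of transcripts above 0 was 13376 ± 411 in osteosarcoma and 13386 ± 805 in control (SD, n = 7 and 6), a difference within the spread between libraries (exact two-sided permutation test, p = 0.988).

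**Figure D5:**
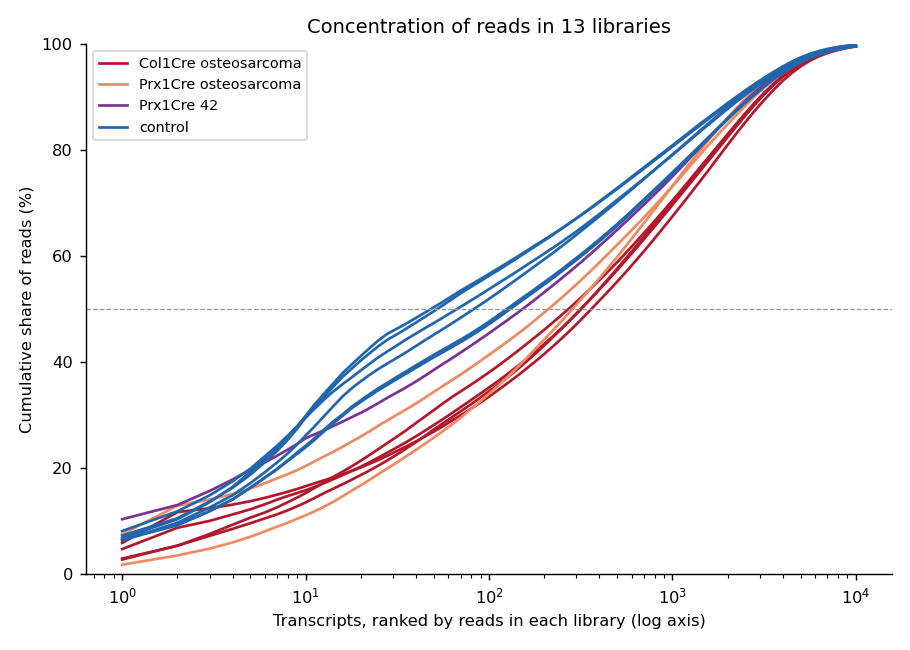
Cumulative share of reads (%) against the number of transcripts, ranked by reads within each library (log axis), 1 line per library. The 50% line is reached at 153 to 362 transcripts in the osteosarcomas and at 49 to 131 in the controls, with Prx1Cre 42 (purple) closest to the controls.

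Osteosarcomas also varied more among themselves. The median SD of log2(RPKM + 1) over tested transcripts was 0.77 between the 7 tumours and 0.45 between the 6 controls, and it was larger in osteosarcoma for 75.1% of transcripts. Leaving out Prx1Cre 42 lowered the tumour value to 0.69. The 4 Col1Cre tumours alone had 0.48, near the controls, and the 3 Prx1Cre tumours 0.90. Over transcripts with a mean of at least 100 reads the values were 0.45 for Col1Cre, 0.95 for Prx1Cre and 0.37 for control. The Prx1Cre values include Prx1Cre 42, and the control values count the nearly equal Chest1 and Chest2 as 2 libraries. Single tumours had transcripts of their own. Counting transcripts of at least 200 bases and 5 RPKM that exceeded all other 12 libraries by at least 8-fold, Prx1Cre 42 had 33, Col1Cre 22 had 24 and Prx1Cre 38 had 6. Col1Cre 26 had none and the other 3 tumours had 1 to 4 each. In Col1Cre 22 these 24 transcripts held 4.04% of all reads. Among the controls Chest5 had 2 and the others none. The closeness of Chest1 to Chest2, and of Bone3 to Chest4, made a count near 0 likely for these controls. The contrast with the tumours is limited by this.

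The titles divide the tumours by Cre. Against the controls, the Col1Cre tumours had 5449 calls (35.8%), 3934 of them higher (25.8%) and 1515 lower (9.95%). The Prx1Cre tumours had 3961 (26%), with 2419 higher (15.9%) and 1542 lower (10.1%), and without Prx1Cre 42 they had 4889, with 2955 higher and 1934 lower. The surplus of higher calls depended on scaling. For Col1Cre, median ratio scaling left 2386 higher and 2787 lower, and for Prx1Cre 1860 and 2231, while quantile normalization gave 2599 and 2444 for Col1Cre, and 2040 and 1853 for Prx1Cre. Both comparisons use the same 6 controls but rest on 4 and 3 tumours, so their counts do not show which group differs more from control. A direct test of 4 against 3 libraries can miss differences, and a small count there does not show that the groups are alike. Set directly against each other, Col1Cre and Prx1Cre osteosarcoma differed at 33 transcripts (0.217%), 32 higher in Col1Cre (0.21%) and 1 lower (0.00657%). An unadjusted p under 0.05 was reached by 1797 of 15230 transcripts. With no difference, a share of about 0.05 would reach it by chance, and 1797 is above that share. The log2 fold changes of the 32 lay between 0.83 and 4.58, and that of the 1 was -3.30. Of the 33, 14 were also higher than control in osteosarcoma as a whole and 6 lower, where 26.6% and 13% of all tested transcripts were. Both tests use the same osteosarcomas, so this overlap is not independent. The count hung on single libraries. It was 1035 without Prx1Cre 28, 122 without Prx1Cre 38, 26 without Prx1Cre 42, 73 without Col1Cre 26, 17 without Col1Cre 31 and 6 without Col1Cre 27. With the 7 osteosarcomas fitted alone it was 0 of 12623 by limma. There 570 had an unadjusted p under 0.05, which is no more than the share given by chance. With voom on the reads it was 9, and 7 under either median ratio scaling or quantile normalization. None of the 4 named transcripts passed this test (limma adjusted p = 0.326 for uc008toi.1, the lowest of the 4).

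Set against Bone3 alone, the only control titled bone, the tumours differed in much the same way, described here without a test. The osteosarcoma mean lay at least 2-fold above Bone3 for 31.3% of all tested transcripts and at least 2-fold below for 14.7%. It was above Bone3 for 4051 of the 4057 transcripts called higher, by 2-fold or more for 3348, and below Bone3 for 1932 of the 1984 called lower, by 2-fold or more for 1486. Without Prx1Cre 42 the 2-fold counts were 3739 of 4439 higher (84.2%) and 1651 of 2183 lower (75.6%). Bone3 itself is among the 6 controls that made these calls. Relative to the 5 Chest libraries alone, all 7 tumours stood above all 5 for 1336 of the transcripts called higher, and Bone3 was also below all 7 for 1302 of these. Of 721 called lower and below all 5, Bone3 was above all 7 tumours for 686. The median log2 difference over the transcripts called higher was 1.63 from Bone3 and 1.40 from the 5 Chest libraries. Over those called lower it was -1.82 from Bone3 and -1.75 from the Chest libraries.

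The same transcripts were set against the other sarcomas. Osteosarcoma differed from clear cell sarcoma at 4854 transcripts (31.9%), 2095 higher (13.8%) and 2759 lower (18.1%). It differed from synovial sarcoma at 4179 (27.4%), 866 higher (5.69%) and 3313 lower (21.8%). Without Prx1Cre 42 the splits were 2263 higher and 2624 lower than clear cell sarcoma, and 1111 and 3363 for synovial sarcoma. Scaling moved them too. Median ratio scaling gave 2515 higher and 2618 lower against clear cell sarcoma, and 1515 and 2234 against synovial sarcoma. Quantile normalization turned both splits, to 2640 higher and 2519 lower against clear cell sarcoma, and 2016 and 1762 against synovial sarcoma. Of the 4057 transcripts higher than control, 1122 (27.7%) were also higher than clear cell sarcoma and 713 (17.6%) higher than synovial sarcoma. Both held for 490 (12.1%), against 3.97% of all tested transcripts, while 343 were lower than clear cell sarcoma and 301 lower than synovial sarcoma. Neither test was passed by 2216 (54.6%), close to the 54.9% of all tested transcripts. Of the 1984 lower than control, 454 (22.9%) were also lower than clear cell sarcoma and 786 (39.6%) lower than synovial sarcoma. Both held for 374 (18.9%), against 9.86% of all tested transcripts, while 43 were higher than clear cell sarcoma and 6 higher than synovial sarcoma. Neither test was passed by 1075 (54.2%). These comparisons share the same osteosarcoma libraries, which favours such overlap, so they are not independent, and a missed threshold does not show that levels were equal.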

How the data were processed

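Total RNA (RNeasy with DNase) went into TruSeq RNA libraries, per the labels' protocols. The submitters' processing notes name CASAVA 1.8.2, Novoalign 2.07.03 and build mm9, and the sources used here do not give the read counter. RPKM values were deposited by the authors, 1 column per library, matched by title. A deposited human array table was not used here.

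Whole reads, lengths and denominators were recovered from the steps of the RPKM values for all 16398 transcripts above 0 in at least 6 libraries. The reads were 99.7% to 100.0% of each denominator in the 13 libraries, so RPKM is relative to reads in listed transcripts. Recovered lengths had a median of 1207.5 bases and 2862 were under 200, and what the shortest stand for is unknown.

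Tests used limma 3.58.1 (R 4.3.3) with an intensity trend on log2(RPKM + 1), 4 tissue types in 1 model, and transcripts with at least 1 RPKM in at least 6 libraries. The Cre comparisons came from a separate model of the same 32 libraries, with osteosarcoma split by title. Library summaries used exact permutation tests (scipy 1.17.1). Named transcripts were the 2 largest increases and 2 largest decreases among calls with at least 5 RPKM in the higher group, a recovered length of at least 200 bases and no overlap between groups, met by 1060 higher and 500 lower transcripts. Overlapping transcripts of 1 locus may share reads. Groups, comparisons and rules were chosen with earlier results of these data known. The alternatives were other pseudocounts, filters, scalings and sample sets. Those using recovered reads or averaged controls were added after seeing the data.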

Additional observations from a re-analysis of the deposited data

Results flagged for a closer look

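In groups of 4 to 7 libraries, a library was picked out when its gap to the nearest other exceeded Dixon's 95% critical share of the range. This was applied 28 times and picked 5. Chance picks about 1 in 20 where values are normal and groups are separate. The RPKM values of chosen transcripts need not be normal, and some groups here lie within others, so 5 of 28 cannot be read against that rate. Transcript uc007rkc.1 at 89.0 RPKM in Col1Cre 27 was picked among the 7 osteosarcomas and among the 4 Col1Cre tumours. Among the controls, uc008toh.1 at 1.36 RPKM in Chest2 (3 reads) and uc008zkp.1 at 1813 RPKM in Chest3 were picked. The position of Prx1Cre 42 on the transcripts higher in osteosarcoma, 28.5%, was picked as the lowest tumour. The direct test of Col1Cre against Prx1Cre osteosarcoma passed at 33 transcripts (limma), a count that fell to 0 in a fit of the osteosarcomas alone and to 7 under median ratio scaling.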

How the results depend on the processing

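The count of 6041 transcripts between osteosarcoma and control lay at 5393 to 6622 when 1 library was left out (3582 to 4439 higher, 1737 to 2183 lower). With Chest1 and Chest2 averaged it was 5906, and with Bone3 and Chest4 averaged too it was 5137. Median ratio scaling gave 3154 lower, and 6781 transcripts of at least 100 mean reads gave 3879 calls, 1099 lower, from fewer transcripts tested. Col1Cre against control gave 2386 higher and 2787 lower under median ratio scaling, and 2599 and 2444 under quantile normalization. Osteosarcoma against synovial sarcoma gave 1515 higher under median ratio scaling, and 2016 higher and 1762 lower under quantile normalization. The cause of these shifts was not tested. Col1Cre against Prx1Cre, with 33 calls, ranged from 6 to 1035 when 1 library was left out (6 to 683 higher, 0 to 352 lower). It gave 61 without a filter (17 lower), 7 under median ratio scaling (5 higher, 2 lower), 7 under quantile normalization (3 and 4), 106 with reads under 20 set to 0 (80 and 26), 9 with voom (9 and 0), 0 lower at 200 bases or more, and 0 in a fit of osteosarcoma alone. The difference in transcripts above 0, -9.83, turned positive at 48.7 with Chest1 and Chest2 averaged (exact permutation p = 0.902). Over the libraries left out 1 at a time it ran from -294 to 123, and it turned positive at 26.7 without Col1Cre 22, 53.5 without Prx1Cre 38, 91.8 without Prx1Cre 42, 104 without Chest2, 122.6 without Chest4 and 101.6 without Chest5. All 4 named transcripts kept direction and passed the test in every setting run on them. They were chosen for large changes without overlap in these same libraries, so this was to be foreseen and is no separate support. No paired analysis was possible because the replicate numbers are title or accession numbers that the groups do not share. Depth limits transcripts listed at 0, behind which up to 19 reads can lie.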
